A study of Homo sapiens with 20 samples.

Results

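The genes IL7R, NRP1, F2RL2, FLT1, PAEP and CES1 were chosen by symbol as genes with a high level in K562 cells after 24 h of GSK343 and X5050 together. They are 6 of the 57736 gene identifiers counted in the drug-treated libraries, and 6 of the 53150 genes that could be named in the genome-edited ones. Because their level at 24 h chose them, every value that sets the 24 h libraries against another group is given as a description with no test. Tests are given for the other comparisons.

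The study measured total RNA, with ribosomal RNA removed, in K562, an established human line from a chronic myeloid leukemia with erythroid and megakaryocytic features. GSK343 inhibits EZH2, the methyltransferase of Polycomb repressive complex 2, and X5050 lowers REST, a repressor that binds DNA. The drug arm had 6 groups of 2 libraries: DMSO for 72 h, 5 µM GSK343 for 72 h, 100 µM X5050 for 72 h, and both drugs at those doses for 8 h, 24 h or 72 h. The excision arm had 4 groups of 2 libraries after CRISPR excision: an empty vector control (EV), cells lacking a region called silencer 1 (S1KO), cells lacking silencer 2 (S2KO) and cells lacking both (DKO). The only DMSO group was at 72 h, so in the 8 h and 24 h libraries the effect of the drugs and that of time in culture cannot be told apart. The labels do not say whether edited cells were clones or pools, nor whether replicates came from separate cultures, so the p-values measure only the spread between these libraries.

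The genes encode 4 surface receptors, a secreted protein and an enzyme. IL7R is the alpha chain of the interleukin 7 receptor; it pairs with the common gamma chain (IL2RG) to signal through JAK1, JAK3 and STAT5, and pairs with CRLF2 to bind TSLP. It is best known from lymphocytes. NRP1 is a co-receptor that binds class 3 semaphorins with plexins and binds VEGF-A, and FLT1 (VEGF receptor 1) binds VEGF-A, VEGF-B and placental growth factor. Both are best known from blood vessels. F2RL2 is the protease-activated receptor PAR3, which thrombin cleaves. PAEP is glycodelin, a secreted lipocalin of the endometrium, and CES1 is a carboxylesterase that hydrolyses ester drugs and lipids, abundant in liver.

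The DNA just before the start of these genes is shown because the start windows of these genes differ in CpG and motif content. RefSeq (GRCh38.p14) start windows were at hand for 4 of the 6, and NRP1 and CES1 are named only. Each line gives the 250 bases before the start, 5′ to 3′ on the gene's strand, at chr5:35856641-35856890 (plus strand) for IL7R, chr5:76623404-76623653 (minus) for F2RL2, chr13:28495129-28495378 (minus) for FLT1 and chr9:135561506-135561755 (plus) for PAEP. Capitals mark a match on either strand to the AP-1 site TGACTCA, bound by Jun and Fos proteins. They likewise mark the cAMP response element TGACGTCA, called CRE, and the site AGATAA that is read by GATA factors.
IL7R: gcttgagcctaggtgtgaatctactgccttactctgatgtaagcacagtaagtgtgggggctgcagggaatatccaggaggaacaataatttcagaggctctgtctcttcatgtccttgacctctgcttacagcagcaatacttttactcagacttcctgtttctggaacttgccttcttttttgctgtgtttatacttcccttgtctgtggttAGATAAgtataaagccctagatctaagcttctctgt
F2RL2: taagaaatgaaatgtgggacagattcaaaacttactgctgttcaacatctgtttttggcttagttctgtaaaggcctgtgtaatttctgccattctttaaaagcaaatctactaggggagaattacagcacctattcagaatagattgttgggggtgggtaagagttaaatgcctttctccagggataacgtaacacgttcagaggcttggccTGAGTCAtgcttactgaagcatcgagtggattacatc
FLT1: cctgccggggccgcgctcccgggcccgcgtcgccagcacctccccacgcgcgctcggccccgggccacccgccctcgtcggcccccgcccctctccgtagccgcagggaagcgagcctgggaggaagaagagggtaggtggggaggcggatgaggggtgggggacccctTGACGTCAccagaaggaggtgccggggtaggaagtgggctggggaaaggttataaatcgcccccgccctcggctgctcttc
PAEP: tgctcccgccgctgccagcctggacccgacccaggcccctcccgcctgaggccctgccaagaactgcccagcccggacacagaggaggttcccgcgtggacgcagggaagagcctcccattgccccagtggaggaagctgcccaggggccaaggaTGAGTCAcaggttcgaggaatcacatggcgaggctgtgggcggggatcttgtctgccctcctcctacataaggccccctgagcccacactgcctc
The IL7R window held no CpG, the F2RL2 window 3, the PAEP window 11 and the FLT1 window 25, against a median of 11 over 35116 start windows of the same length. F2RL2 and PAEP each held an AP-1 match, which 4.203% of all windows hold. FLT1 held a CRE match (1.646% of windows) and IL7R a GATA match (9.167%). A TATA box (TATAAA) stood in the IL7R and FLT1 windows and in 10.72% of all. On either strand, none of the 4 windows held the E-box CACGTG or an EGR site searched as GCGTGGGCG. A match is a description of the letters, not evidence of a bound factor.

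In the drug arm 22925617 to 38177320 reads per library were counted on the strand of a gene, and levels are given as CPM, the counts scaled by the library total times its TMM factor. The excision arm held 55913561 to 98507788 estimated counts per library in named genes. Of 10 erythroid genes that mark K562, 9 or 10 had a mean above 1 CPM in every group. All 6 genes passed the filter on low counts in the drug arm, where the 24 h libraries alone are enough to pass it, and 5 passed in the excision arm, where CES1 did not. Where a gene would not pass it in the libraries of a comparison alone, it is left out of that comparison's count and its fitted p is not given. Tests are edgeR's quasi-likelihood test with Benjamini-Hochberg adjustment over all tested genes and a threshold of 0.05, and changes are log2 fold changes ± standard error between groups of 2 libraries. A pooled ratio is the ratio of the CPM of summed counts, and its 95% interval covers counting error only.

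**Figure D1:**
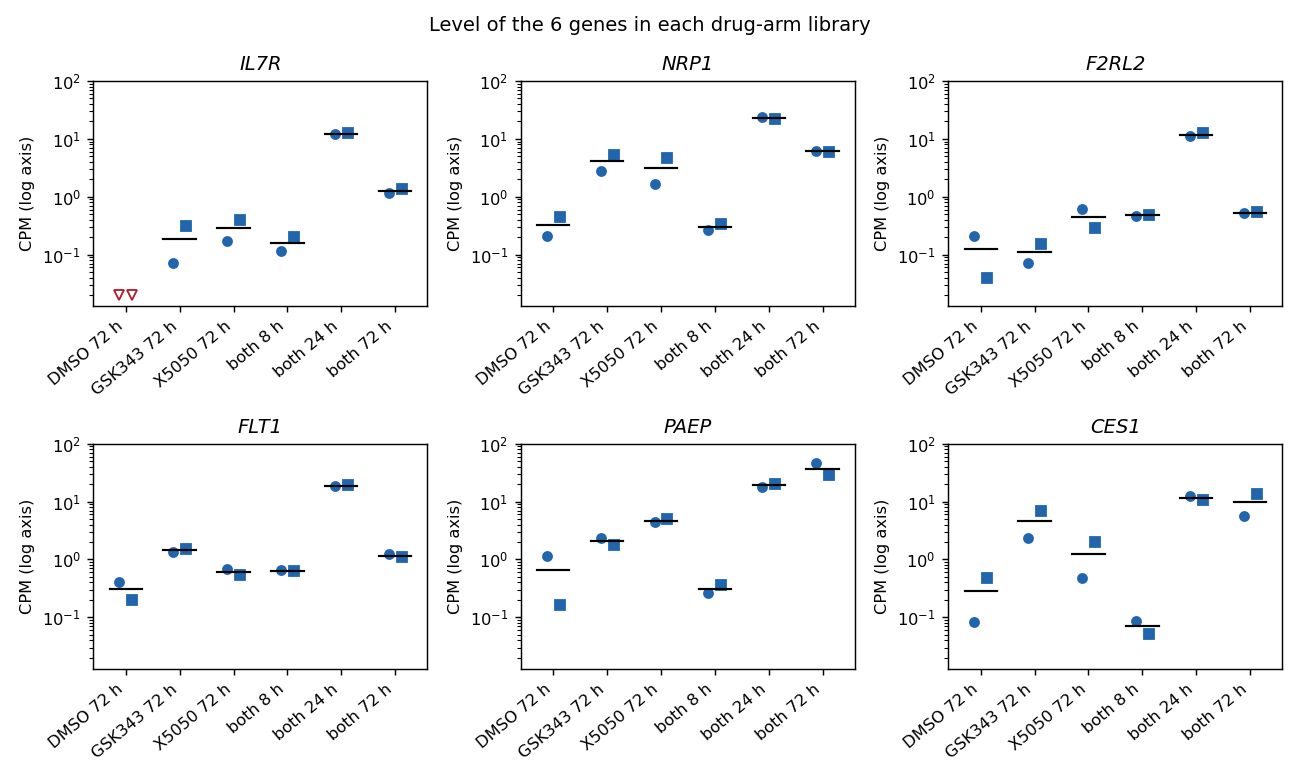
Level of the 6 genes in each drug-arm library, in CPM on a log axis, with a circle for replicate 1, a square for replicate 2, a line at the mean of each group and open triangles at the foot for libraries with 0 counts. Both 24 h libraries stand above all others for IL7R, NRP1, F2RL2 and FLT1, while PAEP is highest at 72 h of both drugs and the CES1 ranges at 24 h and 72 h overlap.

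All 6 genes were chosen as high at 24 h, so a high level there is not a result. IL7R, NRP1, F2RL2 and FLT1 had their highest level at 24 h of both drugs, with no overlap between those libraries and any other group. PAEP was highest at 72 h of both drugs, and CES1 was about as high at 72 h as at 24 h. Per kilobase of longest transcript, the mean level at 24 h was 19.3 CPM per kb for PAEP, 5.33 for CES1, 3.89 for NRP1, 3.47 for F2RL2, 2.68 for IL7R and 2.67 for FLT1. PAEP RNA was thus the most abundant of the set per length, and the receptors were close to each other.

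IL7R went from no read to 378 or more. No read fell on it in either DMSO library, and the 24 h libraries held 378 and 379 reads, or 12.1 and 12.7 CPM. Against a floor of 3 counts over the DMSO group, its level at 24 h was at least 203-fold higher. At 8 h it stood at 0.117 and 0.204 CPM and at 72 h of both drugs at 1.18 and 1.33 CPM. The 24 h libraries were therefore alone above 2 CPM, and the mean at 72 h was 10.2% of that at 24 h. With one drug for 72 h it was 0.0708 and 0.309 CPM under GSK343 and 0.170 and 0.402 CPM under X5050. These ranges overlapped each other and both lay above the DMSO libraries. In order of mean level the groups ran 24 h, 72 h of both, X5050, GSK343, 8 h and DMSO, and X5050, GSK343 and 8 h were not separated by their ranges.

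NRP1 was low in DMSO (0.206 and 0.4401 CPM) and at 8 h (0.264 and 0.332 CPM), and these ranges overlapped. Its level was 23.7 and 22.1 CPM at 24 h, from 740 and 662 reads, and the pooled ratio to DMSO was 70.5 (43.3 to 124). At 72 h it stood at 6.18 and 5.99 CPM with both drugs, 2.83 and 5.31 CPM with GSK343 and 1.66 and 4.68 CPM with X5050. Each of these groups lay above every DMSO library, and the 2 single-drug groups overlapped each other. The mean at 72 h of both drugs was 26.6% of that at 24 h, the largest remainder among the 4 receptors.

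FLT1 read 0.413 and 0.200 CPM in DMSO, 0.644 and 0.638 CPM at 8 h, and 18.2 and 19.6 CPM at 24 h. The pooled ratio of 24 h to DMSO was 62.1 (37.5 to 111). At 72 h of both drugs it was 1.23 and 1.11 CPM, or 6.16% of the 24 h mean, which lay just under the GSK343 libraries at 1.35 and 1.51 CPM. X5050 alone gave 0.678 and 0.548 CPM, a range that overlapped that at 8 h. So at 72 h the level with both drugs was not above that with GSK343 alone.

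F2RL2 kept the smallest share of its 24 h level at 72 h among the 6 genes. It read 0.206 and 0.0400 CPM in DMSO, 0.469 and 0.485 CPM at 8 h, 11.4 and 12.4 CPM at 24 h and 0.526 and 0.534 CPM at 72 h of both drugs. The pooled ratio of 24 h to DMSO was 97.5 (44.6 to 267), from 727 reads against 6, and 4.45% of the 24 h mean was left at 72 h. GSK343 alone gave 0.0708 and 0.154 CPM, which lay within the DMSO range, and X5050 alone 0.610 and 0.293 CPM. F2RL2 lies inside IQGAP2, which is read from the opposite strand and had 66.8 CPM at 24 h against 69.9 CPM in DMSO (means of 2). IQGAP2 did not follow the course of F2RL2. Counts that ignore strand gave F2RL2 15 and 2 reads in DMSO, against 5 and 1 on its own strand, and 320 and 334 reads at 24 h, against 355 and 372.

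PAEP read 1.16 and 0.160 CPM in DMSO, a wide spread for libraries of one group. It was 0.264 and 0.357 CPM at 8 h, 18.2 and 20.01 CPM at 24 h, and 45.7 and 28.5 CPM at 72 h of both drugs. The pooled ratio of 24 h to DMSO was 29.3 (20.7 to 43.1), and the mean at 72 h was 194% of that at 24 h. Alone for 72 h, X5050 gave 4.41 and 4.94 CPM and GSK343 2.34 and 1.76 CPM. From 72 h of both drugs down to GSK343 and DMSO, no neighbouring groups overlapped.

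CES1 read 0.0826 and 0.480 CPM in DMSO and 0.0879 and 0.0510 CPM at 8 h, with overlapping ranges. At 24 h it was 12.7 and 10.5 CPM, and at 72 h of both drugs 5.65 and 13.7 CPM, so these groups overlapped. The pooled ratio of 24 h to DMSO was 40.9 (24.2 to 75.1). GSK343 alone gave 2.34 and 6.97 CPM, which overlapped the 72 h libraries with both drugs, and X5050 alone 0.475 and 1.97 CPM. CES1P1, a pseudogene copy of CES1, read 9.60 and 10.4 CPM at 24 h, 1.88 and 3.28 CPM at 72 h of both drugs and 0.206 and 0.160 CPM in DMSO. Reads that match both copies could not be assigned to one of them, so the level of CES1 is uncertain by that share.

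**Figure D2:**
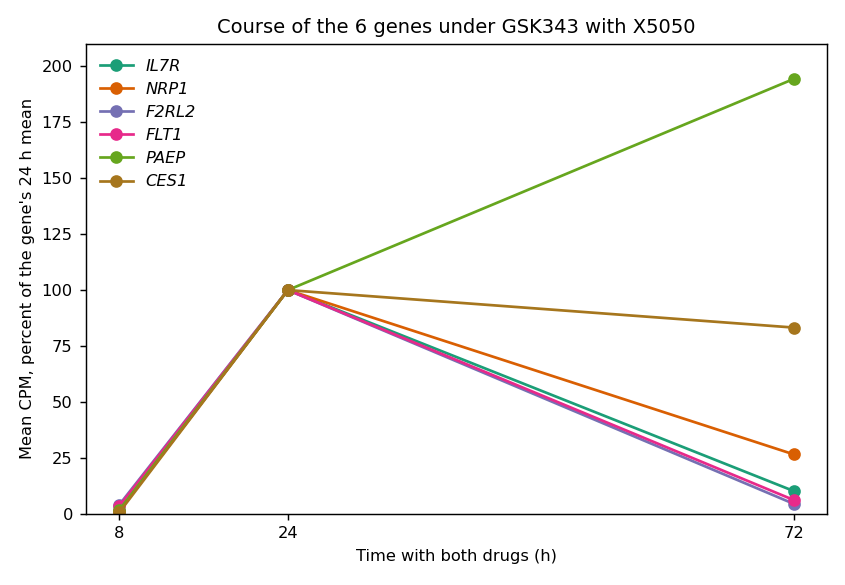
Mean level of each gene at 8, 24 and 72 h of both drugs, in percent of its own 24 h mean, with hours on the horizontal axis and 2 libraries behind each point. IL7R, F2RL2 and FLT1 are at 10.2%, 4.45% and 6.16% at 72 h and NRP1 at 26.6%, while CES1 is at 83.2% and PAEP at 194%.

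At 72 h the genes could be tested in libraries that did not choose them, all against the same pair of DMSO libraries. With both drugs all 6 rose, where 19.2% of all tested genes rose. PAEP rose by 5.82 ± 0.46 (edgeR adjusted p = 1.89e-06), NRP1 by 4.21 ± 0.53 (4.32e-05), CES1 by 5.07 ± 0.95 (0.00314), F2RL2 by 2.08 ± 0.61 (0.0140) and FLT1 by 1.92 ± 0.37 (0.000787). IL7R was at least 20.7-fold higher (adjusted p = 2.85e-05). The F2RL2 call rests on few reads: its adjusted p was 0.121 without DMSO replicate 2, 0.0518 without replicate 2 of the 72 h pair, 0.165 on counts that ignore strand and 0.0581 in a fit of the 2 groups alone.

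GSK343 alone raised 3 of the 4 genes that pass the filter in its own and the DMSO libraries (NRP1, FLT1, CES1 and PAEP), where 9.12% of all tested genes rose. NRP1 rose by 3.64 ± 0.54 (edgeR adjusted p = 0.000794) and FLT1 by 2.21 ± 0.36 (0.000763), and both calls held without any one of the 4 libraries. CES1 rose by 4.02 ± 0.97 (0.0303), a call lost without DMSO replicate 1, DMSO replicate 2 or GSK343 replicate 2 (0.128 to 0.155) and with no filter on low counts (0.111). PAEP changed by 1.64 ± 0.52 (0.0606), and without DMSO replicate 1 by 3.63 (0.000415). It also passed with no filter (1.33e-05) and on counts that ignore strand (0.0490). F2RL2 had 7 reads against 6, and IL7R, with 12 reads against 0, was at least 3.25-fold higher. Neither passes the filter in these 2 groups alone.

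X5050 alone raised 2 of the same 4 genes, where 5.34% of all tested genes rose. NRP1 rose by 3.26 ± 0.55 (edgeR adjusted p = 0.00237) and PAEP by 2.83 ± 0.48 (0.00323), in both cases also without any one of the 4 libraries. CES1 changed by 2.08 ± 1.09 (0.274) and FLT1 by 1.00 ± 0.40 (0.119), and FLT1 passed without DMSO replicate 1 (0.0479). IL7R, with 16 reads against 0, was at least 4.62-fold higher, and F2RL2 had 26 reads against 6, and neither passes the filter in these 2 groups alone.

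Both drugs were then set against each drug alone at 72 h. Over GSK343, the combination raised 3 of the 6 genes (18.9% of all tested genes rose): PAEP by 4.18 ± 0.40 (edgeR adjusted p = 7.63e-06), IL7R by 2.66 ± 0.50 (0.000708) and F2RL2 by 2.16 ± 0.59 (0.00827). The F2RL2 call was lost without GSK343 replicate 1 (0.0722) and on counts that ignore strand (0.152). NRP1 (0.57 ± 0.38, 0.254), CES1 (1.05 ± 0.67, 0.253) and FLT1 (-0.30 ± 0.29, 0.442) did not pass. Over X5050, it raised 4 of the 6 (17.5% of all): PAEP by 2.99 ± 0.36 (8.81e-05), IL7R by 2.14 ± 0.48 (0.00341), CES1 by 2.995 ± 0.76 (0.0176) and FLT1 by 0.92 ± 0.32 (0.0412). The FLT1 call was lost without any one of the 4 libraries (0.0973 to 0.233) and in 5 of 7 other settings (0.0541 to 0.131), that of CES1 without X5050 replicate 1 (0.0774) or replicate 2 of the 72 h pair (0.0884) and with no filter (0.0846), and that of IL7R without X5050 replicate 1 (0.0554). NRP1 changed by 0.95 ± 0.39 (0.0830) and passed without X5050 replicate 2 (1.78, 0.00308) and with no filter (0.00472). F2RL2 changed by 0.22 ± 0.47 (0.771).

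Whether the 2 drugs together gave more or less than the product of their single effects was tested as an interaction. NRP1 was the 1 gene of the 6 that passed, at -2.69 ± 0.69 (edgeR adjusted p = 0.0160), where 9.04% of all tested genes passed in that direction. Its changes over DMSO of 3.64 with GSK343 and 3.26 with X5050 add up to more than the 4.21 seen with both. The call was lost without DMSO replicate 1 (0.102), DMSO replicate 2 (0.0575) or replicate 2 of the 72 h pair (0.0527). FLT1 stood at -1.30 ± 0.49 (0.0798), and passed without DMSO replicate 1 (-1.90, 0.0250). PAEP stood at 1.35 ± 0.66 (0.185). It passed without DMSO replicate 2 (2.16, 0.00396) and with no filter (0.0121), and changed sign without DMSO replicate 1 (-0.66, 0.573). F2RL2 and CES1 did not pass (0.859 and 0.644), and for IL7R the value depends on the 0 reads in DMSO and is not given (0.217).

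After 8 h of both drugs, 2 of the 4 genes that pass the filter in these and the DMSO libraries (F2RL2, FLT1, NRP1 and PAEP) had risen against the 72 h DMSO libraries, where 21.8% of all tested genes rose. F2RL2 rose by 1.93 ± 0.59 (edgeR adjusted p = 0.0153) and FLT1 by 1.06 ± 0.39 (0.0362). Both calls were lost without DMSO replicate 2 (0.143 and 0.301), without replicate 2 of the 8 h pair (0.0516 and 0.102) and in a fit of the 2 groups alone (0.0715 and 0.168). F2RL2 also did not pass on counts that ignore strand (0.131), nor FLT1 without replicate 1 of the 8 h pair (0.0984), with DESeq2 (0.0700), with no filter (0.0796) or with a GC offset (0.0598). IL7R, with 12 reads against 0, was at least 2.68-fold higher, and CES1 had 5 reads against 14, and neither passes the filter in these 2 groups alone. NRP1 (-0.12 ± 0.74, 0.916) and PAEP (-1.05 ± 0.67, 0.234) did not pass. PAEP passed as lower without DMSO replicate 2 (-1.87, 0.00444) and with no filter (0.0444), and was higher, without passing, when DMSO replicate 1 was left out (0.95, 0.369). All 6 genes were under 1 CPM at 8 h, so most of the level seen at 24 h was reached after that time.

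**Figure D3:**
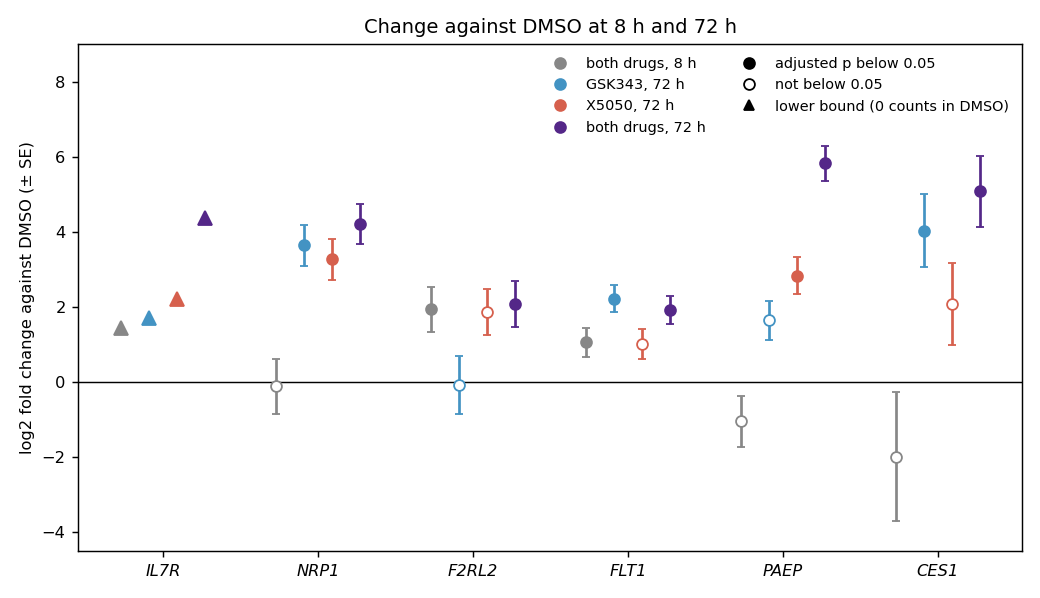
Log2 fold change of each gene against DMSO (vertical axis) at 8 h of both drugs and at 72 h of GSK343, X5050 or both, with bars of 1 standard error, filled points where the adjusted p is below 0.05, and triangles for the lower bounds of IL7R. With both drugs at 72 h all 6 are above 0, from 1.92 for FLT1 to 5.82 for PAEP, and at 8 h PAEP is at -1.05, an open point. CES1 at 8 h and F2RL2 under GSK343 and X5050 are drawn too. They pass the filter only through libraries of other groups, so their points are not read as tests.

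The partners of each receptor were followed in lists of pathway genes, and these listed genes are tested at 24 h. The lists were chosen with earlier results of these data known, so the tests are not independent of that choice. At 24 h against DMSO, 22% of all tested genes rose and 21.1% fell. In the interleukin 7 receptor list 7 of 15 tested genes rose and 4 fell (median log2 change 0.22, against -0.02 over all genes). IL2RG, the chain that pairs with IL7R, was 5.33 and 5.76 CPM in DMSO and 33.0 and 33.8 CPM at 24 h, a rise of 2.59 ± 0.18 (edgeR adjusted p = 2.95e-08). At 72 h of both drugs it was 7.54 and 9.54 CPM. It had fallen from 24 h (-1.97 ± 0.18, 5.74e-07) and was still higher than in DMSO (0.62 ± 0.18, 0.0139), a call held in 2 of 4 fits with a library left out. JAK1, the kinase that IL7R binds, rose by 1.04 ± 0.12 at 24 h (4.62e-06) and fell by 0.82 ± 0.12 to 72 h (4.13e-05). In the drug arm IL2RG and JAK1 were both highest in the 2 libraries of 24 h. IL7R was chosen as high there, so sharing these libraries with it is not a result. From 24 h to 72 h, 9 of the 15 genes fell and 1 rose, where 21.8% of all tested genes fell and 24.1% rose.

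Other members of that pathway went different ways. TSLP and the listed genes PTPN2 and SOCS2 rose at 24 h and fell from 24 h to 72 h, as IL2RG and JAK1 did. The SOCS2 call at 24 h held in 2 of 4 fits with a library left out. STAT5A, a transcription factor downstream of the receptor, fell by 1.21 ± 0.14 at 24 h (edgeR adjusted p = 4.47e-06). JAK3, which binds IL2RG, was 0.454 and 0.800 CPM in DMSO and 0.160 and 0.267 CPM at 24 h (-1.54 ± 0.56, 0.0340), a call held in 1 of 4 fits with a library left out. It was 2.59 and 1.56 CPM at 72 h. TSLP, a ligand of IL7R with CRLF2, rose by 1.39 ± 0.33 at 24 h (0.00363), a call held in 3 of 4 such fits. CRLF2 had at most 0.0438 CPM in any drug library, and IL7 itself was listed at 0 in both 24 h libraries, where its DMSO level was 0.124 and 0.0800 CPM.

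In the list of VEGF and semaphorin genes, the ligands and partners of NRP1 and FLT1, 3 of 13 tested genes rose at 24 h and 4 fell (median log2 change -0.04). At 24 h FLT4, the VEGF receptor of lymphatic vessels, went the opposite way to FLT1, which was chosen for its level there. FLT4 was 6.77 and 7.72 CPM in DMSO and 0.992 and 1.24 CPM at 24 h. It fell by 2.699 ± 0.27 on the log2 scale (edgeR adjusted p = 1.30e-06). FLT4 was also low at 8 h (0.908 and 0.816 CPM) and under X5050 alone (0.949 and 1.54 CPM). Under GSK343 alone it rose (15.7 and 21.7 CPM), as FLT1 did. SEMA3B, a class 3 semaphorin, fell by 1.30 ± 0.27 (0.00105), and PLXNA1, a plexin that partners NRP1, rose by 0.54 ± 0.13 (0.00317). SEMA3A and PLXNA2 also rose at 24 h, while the other semaphorins that passed fell. From 24 h to 72 h SEMA3A fell and PLXNA2 rose. VEGFA, which both receptors bind, was abundant throughout, at 566 and 328 CPM in DMSO and 598 and 615 CPM at 24 h (0.44 ± 0.33, 0.321). KDR, the main VEGF receptor of endothelium, and NRP2 were at or below 0.153 CPM in every drug library. PGF, which FLT1 binds, rose later than FLT1: 0.702 and 1.04 CPM in DMSO, 0.576 and 0.702 CPM at 24 h and 8.50 and 6.91 CPM at 72 h (3.13 ± 0.32 over DMSO, 2.01e-06). VEGFB rose by 0.84 ± 0.14 at 72 h of both drugs (0.000169).

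Among thrombin receptors and their transducers 4 of 16 tested genes rose at 24 h and 2 fell (median 0.18). GNA13, a G protein alpha subunit, rose by 1.22 ± 0.15 (edgeR adjusted p = 1.17e-05), GNAQ, another, by 0.79 ± 0.14 (0.000278) and THBD, the thrombin-binding thrombomodulin, by 1.75 ± 0.40 (0.00228). The related receptors did not pass: F2R (PAR1) was 34.5 and 46.9 CPM in DMSO and 48.9 and 44.4 CPM at 24 h (0.20 ± 0.14, 0.271), F2RL3 (PAR4) changed by -0.23 ± 0.31 (0.583) and F2RL1 (PAR2) by 0.85 ± 0.83 (0.438). Of the 4 receptors of the family, F2RL2 was the one with a level at 24 h far outside its DMSO range, but that level is what chose it.

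None of the 6 tested lipocalins rose at 24 h, and 2 fell (median -1.81). PTGDS, the prostaglandin D synthase, fell by 2.44 ± 0.44 (edgeR adjusted p = 0.000331) and C8G, a chain of complement component C8, fell by 1.66 ± 0.51 (0.0149, held in 2 of 4 fits with a library left out). PAEP, which was chosen for its 24 h level, was in that respect opposite to the lipocalins that passed. LCN2, with at most 0.496 CPM in a drug library, did not pass (-1.95 ± 1.36, 0.269). None of the 12 tested carboxylesterases and lipid hydrolases rose at 24 h and 3 fell (median -0.33). The hepatic lipase LIPC fell by 3.08 ± 0.49 (edgeR adjusted p = 0.000120), the triglyceride lipase PNPLA2 fell by 0.53 ± 0.14 (0.00620) and CES3 fell by 1.11 ± 0.32 (0.0107, held in 2 of 4 such fits). CES2 was 53.9 and 21.5 CPM in DMSO and 29.03 and 26.8 CPM at 24 h (-0.43 ± 0.33, 0.333), and CES4A had at most 0.160 CPM in a drug library.

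Marker lists of the cell types in which the 6 genes are best known were summed in the same libraries. The lymphoid list summed to 13.9 to 14.8 CPM at 24 h and 16.7 to 18.7 CPM in DMSO, with 3 and 4 of 10 genes above 1 CPM and CD7 and MS4A1 at 0 in both groups. The endothelial list summed to 4.64 to 5.54 CPM against 2.23 to 2.52 CPM, with 2 and 1 of 9 genes above 1 CPM and CDH5 and EMCN at 0. The hepatocyte list was lower, at 2.95 to 3.01 CPM against 13.7 to 16.8 CPM, with 1 of 10 above 1 CPM in each and FGB and TTR at 0. The monocyte list stood at 21.1 to 21.2 CPM against 15.8 to 20.4 CPM, with LYZ the 1 gene of 8 above 1 CPM. The endometrial gland list stood at 417 to 434 CPM against 284 to 298 CPM, with 5 of 9 above 1 CPM and the secretoglobins SCGB1D2 and SCGB2A1 at 0. The megakaryocytic list stood higher, at 77.3 to 86.0 CPM against 17.1 to 22.8 CPM, with 4 and 2 of 10 above 1 CPM. GP9 and PF4 were at 0 in both groups. The erythroid list was higher too, at 4880 to 4911 CPM against 1956 to 2092 CPM. At 72 h the endothelial list stood at 8.82 to 14.9 CPM with GSK343 and 1.42 to 1.76 CPM with X5050. With both drugs it was at 4.35 to 5.21 CPM. Under GSK343, 2 of its 9 genes were above 1 CPM, with CDH5, TEK and EMCN at 0. At that time NRP1 rose over DMSO with GSK343, X5050 and both drugs, and FLT1 with GSK343 and both drugs. The megakaryocytic list was then at 53.6 to 62.6 CPM with GSK343, 36.7 to 50.6 CPM with X5050 and 45.1 to 59.7 CPM with both drugs, and the endometrial gland list at 314 to 347, 242 to 266 and 357 to 365 CPM. The part of these changes in the levels of the 6 genes was not tested, and in bulk RNA more cells of a state and more RNA per cell cannot be told apart.

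The 6 genes fell into courses that other genes shared. By Pearson correlation of log2(CPM + 0.5) over the 12 drug libraries, IL7R, F2RL2 and FLT1 were close to each other (r = 0.955 for IL7R and F2RL2, 0.951 for IL7R and FLT1, 0.947 for F2RL2 and FLT1), NRP1 was closest to CES1 (0.934), and PAEP and F2RL2 were at 0.542. These values are descriptions over libraries that share groups, among them the 24 h libraries that chose the 6 genes. A shared high level there raises r. In the same way 13459 protein-coding genes were compared. Most like F2RL2 were SELENOI (r = 0.983, an ethanolamine phosphotransferase), CREM (0.975, a transcription factor that binds cAMP response elements) and C16orf72 (0.975). SELENOI had a mean of 84.5 CPM in DMSO, 506 at 24 h and 115 at 72 h of both drugs, and CREM 22.2, 107 and 28.7 CPM. Most like IL7R were KRT79 (0.983), the kynureninase KYNU (0.982) and HHAT (0.978), and most like FLT1 were SGMS2 (0.981), LIMA1 (0.962) and the scaffold AKAP12 (0.961).

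NRP1, PAEP and CES1 had other neighbours. NRP1 was most like the focal adhesion gene PXN (r = 0.977), CLIC1 (0.961) and TLNRD1 (0.959), and PXN had a mean of 100.1 CPM in DMSO, 237 at 24 h and 182 at 72 h of both drugs. PAEP was most like ITGAX (0.974), the integrin of CD11c, which went from 0.487 CPM in DMSO to 13.5 at 24 h and 28.2 at 72 h, then DDAH2 (0.968) and NRIP3 (0.965). CES1 was most like BHLHE40 (0.969), ZYX (0.955) and the spermine oxidase SMOX (0.954).

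In the excision arm, which was quantified and scaled apart from the drug arm, the 6 genes stayed at or below 1.35 CPM, and 1 of them, F2RL2, passed a test. F2RL2 read 0.0506 and 0.0478 CPM in EV, 0.451 and 0.319 CPM in S1KO, 0.399 and 0.315 CPM in S2KO and 0.668 and 0.323 CPM in DKO. Every edited library lay above both EV libraries, and the 3 edited groups overlapped each other. Its change over EV was 3.29 ± 0.54 in DKO (edgeR adjusted p = 0.0142), where 5.41% of all tested genes rose, 2.93 ± 0.54 in S1KO (0.0364), where 2.44% rose, and 2.82 ± 0.54 in S2KO (0.0609), where 1.45% rose. The pooled ratio of DKO to EV was 9.98 (4.75 to 24.2), from 59 and 8 estimated counts. The S1KO call was lost without any one of its 4 libraries (0.108 to 0.188) and in a fit of the 2 groups alone (0.0900), and that of DKO without DKO replicate 1 (0.0903), EV replicate 1 (0.0652) or EV replicate 2 (0.0898). S2KO passed with DESeq2 (0.0107) and with no filter on low counts (0.0434). IQGAP2, around F2RL2, was lower in every edited group than in EV, with means of 64.3 CPM in S1KO, 58.8 in S2KO and 77.0 in DKO against 103. Whether kallisto was run with strand is not given in the sources used here.

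The other genes did not pass in any excision group. IL7R read 0.215 and 0.0597 CPM in EV and 0.394 and 0.533 CPM in DKO, with no overlap (1.75 ± 0.67, edgeR adjusted p = 0.171). S1KO (0.184 and 0.0851 CPM) and S2KO (0.167 and 0.158 CPM) lay within the EV range. PAEP read 0.101 and 0.287 CPM in EV, 0.205 and 0.255 CPM in S1KO, 0.425 and 0.605 CPM in S2KO and 0.753 and 0.630 CPM in DKO. For PAEP the DKO libraries lay above all others (1.82 ± 0.53, 0.0877), and this passed with DESeq2 (0.0414). NRP1 in DKO (1.35 and 0.711 CPM, against 0.595 and 0.729 CPM in EV) overlapped EV (0.64 ± 0.43, 0.421), and NRP1 read 0.615 and 0.5002 CPM in S1KO and 0.682 and 1.09 CPM in S2KO. FLT1 ranged from 0.164 to 0.548 CPM over the 8 libraries, and its DKO libraries lay above EV (0.52 ± 0.47, 0.549). CES1 was listed at 0 in S1KO replicate 1 and DKO replicate 2 and reached 0.237 CPM in S2KO replicate 2.

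Some partners moved in the excision arm too. IL2RG read 4.09 and 1.73 CPM in EV, 15.9 and 10.4 CPM in S1KO, 15.8 and 9.62 CPM in S2KO and 16.8 and 17.0 CPM in DKO. All 6 edited libraries lay above EV, and the rise passed in DKO (2.54 ± 0.47, edgeR adjusted p = 0.0221), a call held in 1 of 4 fits with a library left out. THBD rose in DKO by 3.52 ± 0.37 (0.00293), and PLCB2, a phospholipase downstream of G proteins, fell by 3.31 ± 0.30 (0.00161). Of the semaphorin list SEMA3A (2.61 ± 0.25, 0.00191) and SEMA3D (3.47 ± 0.36, 0.00275), ligands for neuropilins, rose in DKO and PLXND1 fell by 1.62 ± 0.17 (0.00304). In all, 2 of 15 interleukin 7 receptor genes, 4 of 16 VEGF and semaphorin genes 3 of 16 thrombin genes, none of 8 lipocalins and 2 of 14 carboxylesterases and lipid hydrolases passed in DKO in either direction, where 8.76% of all tested genes passed.

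**Figure D4:**
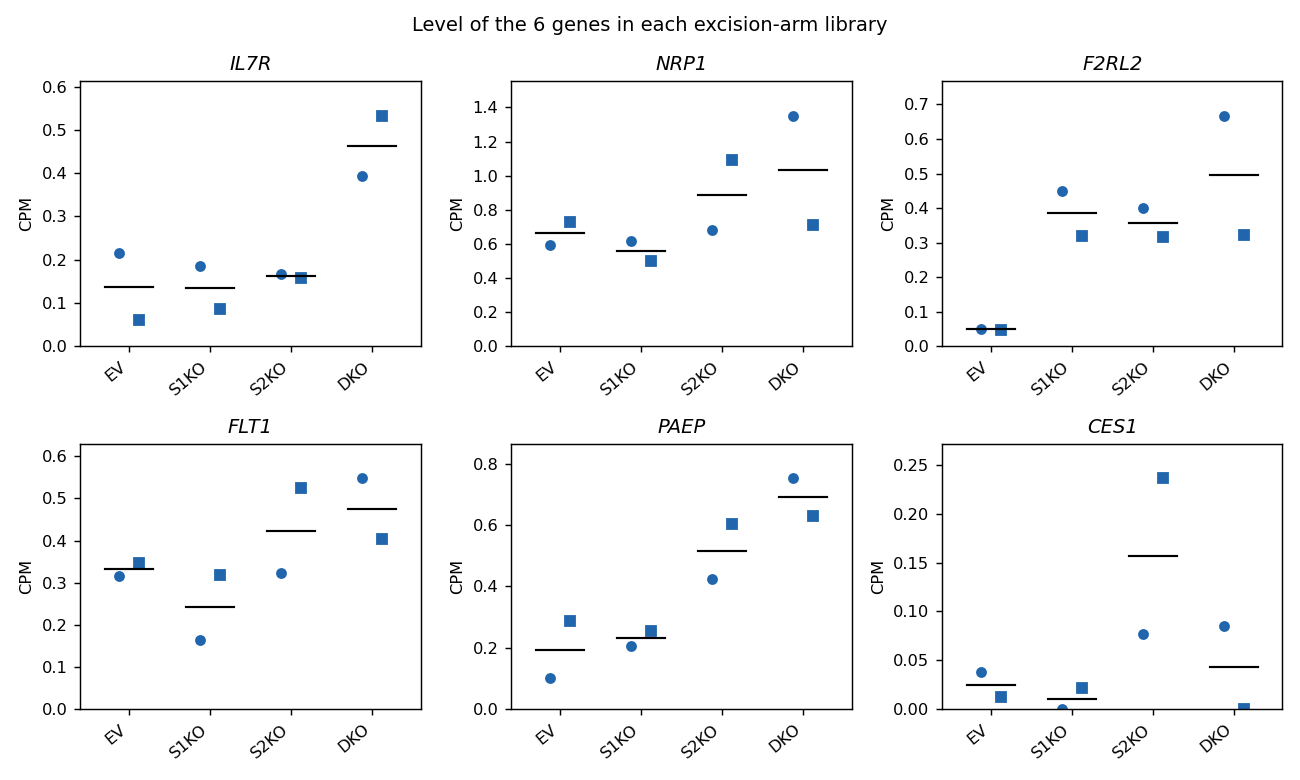
Level of the 6 genes in each excision-arm library, in CPM on linear axes that start at 0, with a circle for replicate 1, a square for replicate 2 and a line at the mean of each group. Every edited library lies above both EV libraries for F2RL2, and both DKO libraries lie above all others for IL7R and PAEP.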

How the data were processed

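Per the labels, RNA of K562 cells was made into stranded total RNA libraries with ribosomal RNA removed. Per the submitters' processing notes, the tools were Trimmomatic 0.38, STAR 2.7.3a and kallisto 0.44.0, on hg19; the annotation release is not given in the sources used here. The authors deposited STAR gene counts for the drug arm and kallisto estimated counts and TPM for the excision arm. The reverse-strand column was used, which held 8.01 to 9.77 times the reads of the forward column. Of 215170 transcripts, 182235 (84.7%) were found in GENCODE 29 and their estimated counts, 87.8% to 90.4% of the total, were summed per gene and rounded. The TPM values that the authors deposited entered 1 alternative, as length-scaled counts. GENCODE 29 and RefSeq are on GRCh38 and gave names, overlaps, transcript lengths, GC content and start windows only.

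Each arm had its own edgeR 4.0.16 model under R 4.3.3, with 1 mean per group, TMM scaling, the filterByExpr rule for low counts and robust quasi-likelihood tests, over 19224 genes (6 residual degrees of freedom, biological coefficient of variation 0.129) and 21284 genes (4, 0.323). Standard errors are the absolute log2 change over the square root of F. With 2 libraries a group, exact permutation cannot reach a p below 0.333, so each p rests on this model. For a gene with no reads in a group, the fold is a bound that assumes 3 counts over that group. The script was tested on simulated data. The genes and lists were chosen with earlier results of these data known. Named were the 6 genes, up to 3 called genes of each list by lowest p with fixed partners, and the 3 most correlated genes. DESeq2 1.42.0, RLE factors, no filter, a replicate block, unstranded counts, a GC offset, fits of just the compared groups, and fits that omit 1 library each were the alternatives.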

Additional observations from a re-analysis of the deposited data

Results flagged for a closer look

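NRP1 stands here because the effect of each drug on it differed with the other drug present. The interaction of GSK343 and X5050 at 72 h was -2.69 ± 0.69 on the log2 scale (edgeR adjusted p = 0.0160). With 1 library left out, the interaction passed in 5 of 8 fits, and its value ranged from -3.34 to -1.83.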

How the results depend on the processing

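Of 504 changes of the 6 genes under settings other than leaving out a library, 462 kept their direction and their side of the threshold or moved by less than their spread, 14 came to pass, 19 no longer passed and 6 descriptions moved. Direction changed in 3, none of which passed either way: F2RL2 under GSK343 on unstranded counts (0.026), and IL7R in S1KO with the replicate block (0.012) and in S2KO with length-scaled TPM counts (-0.34). With a library left out, 17 of 324 changed direction, in 11 tested changes that passed in no fit in the changed direction and in CES1 at 72 h against 24 h (-1.06 to 0.24). The ranges were -0.82 to 1.43 for F2RL2 under GSK343, -0.55 to 0.53 for NRP1 and -1.87 to 0.95 for PAEP at 8 h, -0.29 to 0.79 for F2RL2 with both drugs against X5050, -1.22 to 1.03 for F2RL2, -0.66 to 2.16 for PAEP and -2.77 to 0.25 for CES1 in the interaction, -0.67 to 1.13 for IL7R and -0.34 to 1.16 for PAEP in S1KO, and -0.40 to 1.40 for IL7R and -0.042 to 0.64 for FLT1 in S2KO. Counts of the 6 genes called below include genes that pass the filter only through libraries of other groups. Fitted on only the groups compared, the number of all genes called was 1118 for GSK343 (2390 in the fit of all groups), 617 for X5050 (2415), 2314 for the interaction (3613), 301 for S1KO (781) and 0 for S2KO (427 in the edgeR fit), and the number of the 6 genes called was 0 at 8 h (3) and 0 in S1KO (1). A GC offset gave 4088 genes for GSK343. Unstranded counts left 1 of the 6 called at 8 h. With no filter 2 of the 6 passed the interaction (1) and 1 passed in S2KO (0). DESeq2 called 1815 genes in S1KO, 1140 in S2KO and 3387 in DKO (1865), with 1 of the 6 genes in S2KO and 2 in DKO (1). With the replicate block 1348, 716 and 3172 genes passed in S1KO, S2KO and DKO, with 1 of the 6 in S2KO (F2RL2, 0.0301) and 2 in DKO (PAEP came in, 0.0442). In the drug arm the block brought in PAEP for GSK343 (0.0420) and NRP1 for both drugs against X5050 (0.0237). Correlations of same-numbered deviations were -0.05 to 0.21 in the drug arm, 0.46 to 0.58 among EV, S1KO and S2KO and -0.07 to -0.05 between DKO and those groups. As not every pair was above 0.1 and the labels do not explain the numbers, they were not taken to pair the libraries, though libraries of EV, S1KO and S2KO with the same number deviated together. In fits of the compared groups alone IL7R at 8 h, under GSK343 and under X5050, F2RL2 under GSK343 and X5050, and CES1 at 8 h were dropped by the filter. With a library left out, genes called ranged from 739 to 4287 for GSK343, 815 to 3121 for X5050, 4178 to 4710 for 24 h against 8 h (6880), 3597 to 4907 for both drugs against X5050 (5816), 2296 to 4854 for the interaction, 249 to 446 for S1KO, 157 to 329 for S2KO and 526 to 1333 for DKO. The 6 genes called then ranged from 2 to 4 for GSK343 (4), 3 to 5 for X5050 (3), 0 to 2 at 8 h, 1 to 4 for both drugs against X5050 (4), 0 to 1 for the interaction, 0 in S1KO and 0 to 1 in DKO. The cause was not tested, apart from the fewer libraries in these fits. Depth limits the DMSO values, which rest on 0 to 32 reads per gene over both libraries.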

Other observations

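The longest IL7R transcript in the excision tables (4626 bases, the full-length form) had estimated counts of 16.23 and 21.12 for DKO. For EV they were 1.0 and 0, for S1KO 3.04 and 2.45, and for S2KO 3.73 and 3.68. In EV most of the estimated counts of IL7R lay on short transcripts of 515 bases (7.0 and 5.0) and 551 bases (9.19 and 0). The long IL7R transcript was singled out after its values were seen and has no test. The full-length FLT1 transcript (7084 bases) had 13.24 to 29.41 estimated counts over the 8 excision libraries, and a shorter one of 2968 bases had 2.91 to 10.63.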
